A study of Oryza sativa with 12 samples.

Results

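Among 12 RNA-seq libraries from rice seedlings, 3 held almost no transcript of LSI2, a silicon efflux transporter gene of roots, and they are compared here with the other 9. They were chosen by their LSI2 level, which had to be under 1 FPKM (fragments per kilobase of gene, scaled to the reads of the library), so the level of LSI2 itself defines the groups and nothing in the comparison of the 3 with the 9 was tested. They were wild type (WT) control 3, pkg control 3 and pkg Br-cGMP 3. The members nearest the limit were 0.196 FPKM inside it (WT control 3) and 41.7 FPKM outside it (pkg Br-cGMP 1), with no library between.

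All libraries came from seedlings of the japonica rice cultivar ZH11, 14 days old, grown on MS medium, a standard mineral medium for plant culture. The 4 groups of 3 libraries were wild type without addition (WT control), wild type given 10 µM Br-cGMP for 5 h (WT Br-cGMP), and the mutant, whose genotype is labelled PKG-/-, without (pkg control) or with (pkg Br-cGMP) the same addition. Br-cGMP is a brominated analogue of the messenger cyclic GMP, and PKG is a cGMP-dependent protein kinase. The series calls the libraries of a group biological repetitions; the number of seedlings pooled in each, and whether shoots and roots were extracted jointly, is not stated there.

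Rice takes up large amounts of silicic acid through its roots. NIP2-1, also known as Lsi1, is a channel that lets silicic acid into the outer root cells, and LSI2 pumps it out of them towards the stele. Plasma membrane aquaporins such as PIP2-3 carry water across membranes, and metallothioneins such as MT4C are small cysteine-rich proteins that bind metals. LSI2, NIP2-1 and PIP2-3 are known for expression in roots, so their levels bear on how much root RNA a seedling library holds. In bulk tissue, fewer cells of a type and less RNA per cell cannot be told apart.

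Depth was lower in the low libraries but overlapped with that of the others. The reads recovered from the deposited values numbered 6667261 to 7736122 in the 3 low libraries and 7650949 to 9438909 in the other 9. Reference genes at 1 FPKM or more numbered 11112 to 11658 in the low libraries and 12029 to 12598 in the others, with no overlap. No pair of libraries held identical values. The 3 low libraries carry replicate number 3 in their groups, and the remaining library with that number, WT Br-cGMP 3, was not low. The locus taken for PKG, OS02G0281000, lay between 3.68 and 9.29 FPKM over the 12 libraries, and within the 9 others limma gave a difference of 0.15 ± 0.26 (adjusted p = 0.917) between pkg and WT on the log2(FPKM + 1) scale. What was changed in the gene is not stated, and its transcript level is therefore no check of the genotype labels.

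The 4 marker genes were low together in the same 3 libraries. LSI2 (OS03G0107300, chromosome 3, 430697 to 432874; no source used here gives the genome build of this and all later coordinates) stood at 189, 148 and 0.196 FPKM in WT control 1 to 3, at 126, 129 and 0 FPKM in pkg control, at 187, 345 and 201 FPKM in WT Br-cGMP and at 41.7, 452 and 0.181 FPKM in pkg Br-cGMP. The low values rest on 3, 0 and 3 reads. The difference of the low from the other libraries, fitted with genotype and treatment as covariates, was -7.05 ± 0.62 (SE) on the log2(FPKM + 1) scale. All later differences are low minus other libraries on that scale, which understates those of weakly expressed genes.

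NIP2-1 (OS02G0745100, chromosome 2, 31266328 to 31269935), the influx channel of the same pathway, had 15.3, 6.91 and 13.3 FPKM in WT control 3, pkg control 3 and pkg Br-cGMP 3, based on 158, 63 and 149 reads. In the other libraries it had 552 and 415 FPKM in WT control 1 and 2, 480 and 415 FPKM in pkg control 1 and 2, 616, 1023 and 621 FPKM in WT Br-cGMP, and 117 and 1307 FPKM in pkg Br-cGMP 1 and 2. The low libraries thus retained 2.76%, 1.25% and 2.41% of the median of the others, and the groups did not overlap (difference -5.20 ± 0.65).

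PIP2-3 (OS04G0521100, chromosome 4, 26099273 to 26101764) was listed at 0 in all 3 low libraries. It had 15.5 and 9.76 FPKM in WT control 1 and 2, 18.2 and 9.15 FPKM in pkg control 1 and 2, 15.0, 30.3 and 20.2 FPKM in WT Br-cGMP, and 5.53 and 49.6 FPKM in pkg Br-cGMP 1 and 2. Taking 3 reads in each low library as the floor, its mean was at least 58.9-fold lower there. This floor and the read numbers cover counting error only.

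MT4C (OS12G0571100, chromosome 12, 23515075 to 23516013) was among the most abundant of the low transcripts. It had 2737 and 2207 FPKM in WT control 1 and 2, 811 and 2725 FPKM in pkg control 1 and 2, 1540, 6215 and 4139 FPKM in WT Br-cGMP, and 1751 and 4191 FPKM in pkg Br-cGMP 1 and 2. In the low libraries it had 5.48, 4.24 and 7.83 FPKM, which is 0.201%, 0.156% and 0.287% of the median of the others (difference -8.29 ± 0.53).

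**Figure D1:**
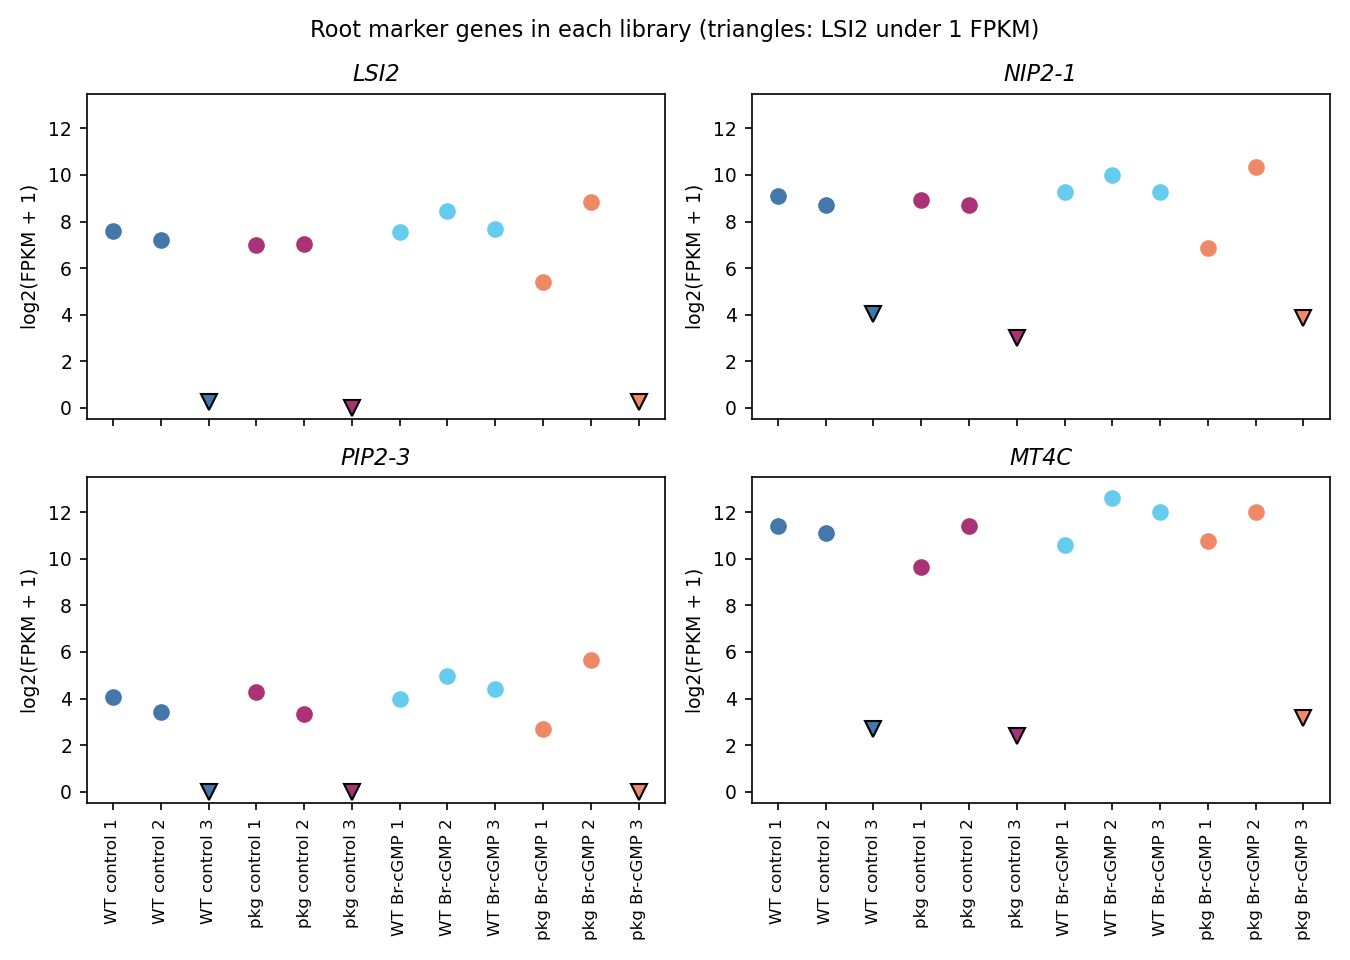
Level of LSI2, NIP2-1, PIP2-3 and MT4C in each of the 12 libraries, on a log2(FPKM + 1) axis; each point is 1 library, coloured by group, and triangles mark the 3 libraries with LSI2 under 1 FPKM. The triangles lie below every circle in all 4 panels, and pkg Br-cGMP 1 is the lowest circle for LSI2 (41.7 FPKM), NIP2-1 (117 FPKM) and PIP2-3 (5.53 FPKM).

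Because 1 low library falls in each of 3 groups and none in the fourth, the group means of these genes mix both kinds of library, and WT Br-cGMP, with no low library, had the highest mean of LSI2 and MT4C. LSI2 averaged 245 ± 87.2 FPKM (SD, n = 3) in WT Br-cGMP, 113 ± 99.5 in WT control and 85.0 ± 73.6 in pkg control, with single values of 41.7, 452 and 0.181 in pkg Br-cGMP. MT4C averaged 3964 ± 2343 FPKM in WT Br-cGMP, 1650 ± 1449 in WT control, 1983 ± 2101 in pkg Br-cGMP and 1180 ± 1397 in pkg control.

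Beyond the markers, many more genes were lower than higher in the 3 libraries. A gene was counted as lower where all 3 low libraries lay below all 9 others and the fitted difference was -1 or less, and as higher in the mirrored case. Of 13781 reference genes with at least 1 FPKM in at least 3 libraries, 674 were lower (4.89%) and 40 higher (0.29%); both shares describe how the libraries were chosen and are not a test. A gene near 0 in the low libraries passed this filter through the other 9. With the log2 values of each library centred on the same median, which moves the median difference of all genes from -0.06 to 0.20, the split became 433 lower and 172 higher. The higher count was also 80 with the replicate number as a block, 134 without WT control 3, 128 without pkg control 2, 94 without pkg Br-cGMP 3, 90 without pkg control 3 and 66 without pkg Br-cGMP 2.

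The 674 lower genes took 0.417% to 0.509% of reference-gene reads in the low libraries and 2.43% to 7.51% in the others. Of them, 205 to 219 were listed at 0 in each low library, and 110 in all 3. They included 69 of the 1139 genes past the filter that have a symbol in the files. These were 10.2% of the lower genes, where 8.265% of all genes past the filter have a symbol. The 40 higher genes took 0.953% to 1.11% of reads in the low libraries and 0.288% to 0.713% in the others. A further class in the files, 8958 added features past the same filter, had 211 lower (2.36%) and 47 higher (0.52%). Another class, 2487 features with identifiers beginning EPlOSAG, had 11 lower (0.44%) and 15 higher (0.60%), so lower features did not outnumber higher ones there.

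**Figure D2:**
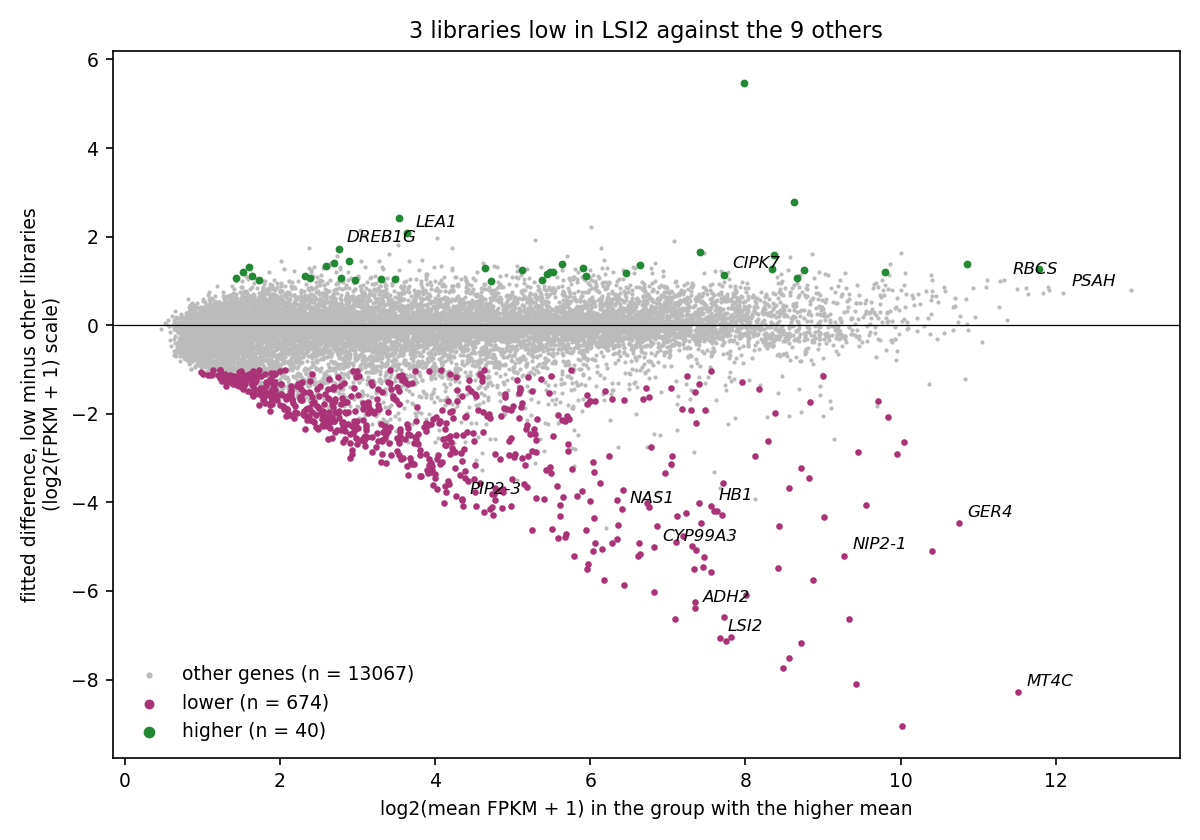
Fitted difference of the 3 low from the 9 other libraries on the log2(FPKM + 1) scale, against the log2(mean FPKM + 1) in the group with the higher mean, for 13781 reference genes; each point is 1 gene, with the 674 lower genes in purple, the 40 higher genes in green and selected symbols written beside their points. The purple points reach -9.04 and extend over most of the range of levels, and the green points reach 5.47.

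The silicon transport genes had the most negative median of the 29 lists. Of 4 listed, 3 were lower and none higher, where 4.89% and 0.29% of all genes were. Their median difference was -4.16 against -0.06 over all genes. LSI2, whose level defined the groups, is 1 of the 3, and without it the median is that of LSI3 (-3.11). LSI3 (OS10G0547500), a homologue of LSI2, had 0, 0.15 and 0 FPKM in WT control 3, pkg control 3 and pkg Br-cGMP 3, and 4.49 to 19.6 FPKM (median 6.98) in the others. The exception was NIP2-2, also known as Lsi6, a channel described in rice for moving silicon out of the xylem in leaves and nodes as well as in root tips. NIP2-2 had 55.6, 50.3 and 44.7 FPKM in the low libraries and 22.9 to 92.4 FPKM in the others, with a difference of -0.04 ± 0.43.

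Aquaporins were split. Of 27 listed, 17 passed the filter and 4 of those were lower, NIP2-1 and PIP2-3 among them, where 4.89% of all genes were. The median over the list was -0.39 (-0.98 with the replicate block, -0.13 with centred libraries and -0.07 without pkg Br-cGMP 3). PIP1-3 had 7.86, 20.1 and 15.4 FPKM in the low libraries and 44.2 to 288 FPKM (median 85.0) in the others. PIP2-4 had 0.448, 1.40 and 0.104 FPKM against 3.33 to 24.7 FPKM. PIP2-7 lay in the other direction (1.40 ± 0.55) with 113, 126 and 99.1 FPKM against 15.5 to 113 FPKM, and its groups overlapped.

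Genes for metal handling included some of the lowest values and also one of the higher genes. NRAT1, an aluminium transporter of rice roots, had 0.290, 0.165 and 1.07 FPKM in the low libraries and 6.47 to 50.8 FPKM (median 21.0) in the others (difference -3.80 ± 0.52). NAS1 and NAS2, synthases of the iron chelator nicotianamine, differed by -4.16 ± 0.80 and -4.02 ± 0.72; they are neighbouring copies on chromosome 3, and how reads were shared between them is not known. Both had their highest value among the low libraries in pkg Br-cGMP 3, at 10.7 FPKM. NRAMP5, the manganese and cadmium uptake transporter of rice roots, had 15.7, 3.54 and 1.25 FPKM against 12.0 to 52.3 FPKM, so that WT control 3 overlapped with the others. NRAMP1 was among the higher genes, at 1.37, 1.85 and 3.14 FPKM against 0 to 1.16 FPKM. Of 38 iron and metal genes listed, 22 passed the filter, 2 were lower and 1 higher, with a median of -0.20 (0.06 with libraries centred on the same median). Over all genes 4.89% were lower and 0.29% higher, so counts this small are not read as results about the list.

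Metallothioneins had 2 lower genes among 7 past the filter, where 4.89% of all genes were lower. The second was MT4A, which has 1 gene past the filter between it and MT4C and had 31.3, 111 and 135 FPKM against 175 to 524 FPKM. MT3A differed by 1.03 ± 0.57 with overlapping groups. The stretch from MT4A over OS12G0571000 to MT4C (chromosome 12, 23501423 to 23516013) was 1 of 16 runs of 3 neighbouring lower genes, the longest length seen. In all, 158 of the 674 lower genes (23.4%) had a lower gene next to them among the genes past the filter, and 9.36% of all these genes had one.

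Some other genes known for uptake by roots were not low in the 3 libraries. The phosphate transporter PHT1-1 had 125, 155 and 480 FPKM in the low libraries and 102 to 472 FPKM in the others, a difference of 0.20 ± 0.27. PHT1-8, of the same family, had 16.5, 27.6 and 56.9 FPKM against 17.4 to 60.9 FPKM. The ammonium transporter AMT1-1 had 8.19, 10.5 and 17.7 FPKM against 3.70 to 20.7 FPKM. The ferrous iron transporter IRT2 was weakly expressed, at 1.47 to 3.28 FPKM against 0 to 2.30 FPKM (median 0.240), a difference of 0.96 ± 0.33. How far these genes are also expressed in shoots was not tested. These 4 genes and NIP2-2, NRAMP1, PIP2-4, PIP2-7, MT3A, SCR1, SCR2 and ADH1 were picked out after their values were seen. Over the lists, 1 of 10 phosphate genes, PHT1-4, and none of 8 nitrogen genes was lower, with medians of -0.05 (0.22 with centred libraries) and 0.09 (-0.01 with the replicate block), both near 0 and of unstable sign. Differences were below 0 for 5 phosphate genes and above 0 for 5, and below 0 for 3 nitrogen genes and above 0 for 5. Those below 0 included PHT3 (-1.06 ± 0.52), GLN1-3 (-1.02 ± 0.40) and AMT1-2 (-0.63 ± 0.37), all with overlapping groups. Of 12 potassium and sodium transport genes none was lower or higher, while 7 had differences below 0 and 5 above. Over all genes 4.89% were lower and 0.29% higher, so counts of 0 in lists this small are near that background.

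Of 8 genes listed for root development, 7 passed the filter. Of these 1, RAA1, was counted as lower, where 4.89% of all genes were. The median of the list was -0.86 (-1.61 with a pseudocount of 0.1 and -0.51 with one of 5), and 7 of 7 differences were below 0. RAA1, named for its part in root architecture, had 1.56, 2.95 and 1.44 FPKM in the low libraries and 8.68 to 68.6 FPKM (median 23.5) in the others. SHR1, a factor of radial root patterning, had 4.96, 1.63 and 0.0552 FPKM against 3.23 to 18.1 FPKM and overlapped through WT control 3. SCR1 and SCR2, its partners in that process, differed by -0.34 ± 0.46 and -0.55 ± 0.60. Thus part of the known root genes were near 0 in the low libraries while others were at levels seen in the rest, and the label of all 12 libraries is seedling. Several of those at levels seen in the rest were picked out after their values were seen. Whether they are specific to roots was not tested.

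Genes of green tissue lay in the other direction, mostly with overlapping groups. All 5 photosystem and electron carrier genes, all 4 carbon fixation genes and all 7 chlorophyll synthesis genes past the filter had differences above 0, with medians of 0.63, 0.90 and 0.41. None was counted as higher, where 0.29% of all genes were. Without pkg control 3 the photosystem median was 0.41 and that of chlorophyll synthesis 0.02, and the latter was 0.68 without WT control 3 and 0.69 without pkg Br-cGMP 3. CAO, an enzyme gene of chlorophyll b synthesis, separated the groups with 129, 176 and 116 FPKM against 62.0 to 111 FPKM, at a difference of 0.68 ± 0.21. The summed level of the carbon fixation genes was 2114 to 5733 FPKM in the low libraries and 835 to 2816 FPKM in the others. That of the photosystem genes was 4066 to 5690 FPKM against 2039 to 4931 FPKM. RBCS, a gene of the small subunit of Rubisco, had 1498, 4654 and 1606 FPKM in the low libraries and 562 to 2337 FPKM (median 869) in the others. PSAH, a subunit gene of photosystem I, had 4956, 4697 and 3507 FPKM against 1668 to 4321 FPKM. These summed levels overlapped between the groups, and their part in the other differences was not tested.

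Some single genes with strongly negative differences encode metabolic enzymes or an oxygen-binding protein. ADH2, an alcohol dehydrogenase gene of ethanol fermentation, had 0.511, 0.967 and 0.708 FPKM in the low libraries and 86.9 to 392 FPKM (median 137) in the others (-6.39 ± 0.44). Its neighbour ADH1 differed by 0.31 ± 0.22 and was weakly expressed in all libraries, at 2.46 FPKM or less. HB1, a non-symbiotic haemoglobin gene, had 1.19, 16.8 and 19.5 FPKM against 79.3 to 454 FPKM (-4.09 ± 0.67), so the low libraries differed among themselves for it. CIN6, a cell wall invertase gene, had 0, 0.241 and 0.849 FPKM against 4.44 to 29.5 FPKM, and the sugar transporter gene SWEET12 was listed at 0 in the 3 low libraries against 1.29 to 9.36 FPKM. They were the 2 lower genes of 13 past the filter in the sugar list, where 4.89% of all genes were lower. Of the 13, 7 had differences above 0, and the list median was 0.41 (0.16 without pkg control 1 and -0.02 with no filter).

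CYP714D1 encodes an enzyme that inactivates gibberellins. It was the 1 lower gene of 4 gibberellin genes past the filter, where 4.89% of all genes were lower. It had 3.59, 3.12 and 2.48 FPKM in WT control 3, pkg control 3 and pkg Br-cGMP 3, and 16.2 to 99.1 FPKM (median 27.0) in the others, a difference of -2.87 ± 0.50. The gibberellin receptor gene GID1 differed by 0.15 ± 0.17 and the repressor gene SLR1 by -0.02 ± 0.23. GAMYB, the factor in the series title, lay between 0.338 and 1.98 FPKM in all libraries and did not pass the filter. GH3.2, which encodes an enzyme that conjugates auxin to amino acids, had 0.403, 4.57 and 2.82 FPKM against 14.6 to 129 FPKM. It was 1 of 3 lower genes among 26 auxin genes past the filter, where 4.89% of all genes were lower. The median of that list was -0.44, or -0.75 with the replicate block, -0.18 with centred libraries or without pkg Br-cGMP 3, and -0.23 without pkg control 1.

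Defence and cell wall genes were also represented. CYP99A3, an enzyme gene of momilactone synthesis, had 0.918, 1.56 and 2.05 FPKM in the low libraries and 38.2 to 281 FPKM (median 104) in the others. It was 1 of 3 lower genes among 9 diterpenoid phytoalexin genes past the filter, with CYP76M8 (-2.91 ± 0.43) and CYP76M5 (-2.30 ± 0.56). The list median was -0.98. Over all genes 4.89% were lower, the share to be read beside this count and the following ones. Of 26 expansin and xyloglucan enzyme genes, which act on wall extension, 5 were lower and 20 had differences below 0, with a median of -0.99 (-0.59 without pkg Br-cGMP 3), or -1.11 with genes at 0 in the low libraries set to their bound. EXPB8, a beta-expansin gene, had 8.96, 5.47 and 0 FPKM against 16.0 to 158 FPKM. The allene oxide synthase genes of jasmonate synthesis CYP74A3 (-2.62 ± 0.58) and CYP74A4 (-1.66 ± 0.46) were among 3 lower genes of 19 in the jasmonate list, whose median was 0.05 (-1.25 with the replicate block and -0.23 without pkg Br-cGMP 3).

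The germin-like gene GER4 varied widely within the low libraries. It had 179, 62.3 and 7.21 FPKM in WT control 3, pkg control 3 and pkg Br-cGMP 3, and 218 to 3144 FPKM (median 1857) in the others. The lowest of the others were pkg Br-cGMP 1 at 218 FPKM and WT control 1 at 289 FPKM, close to WT control 3. GER6, another germin-like gene, was more even, at 4.02, 4.72 and 7.04 FPKM against 24.9 to 121 FPKM.

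Among meristem genes, OSH15, a homeobox gene of the KNOX class known from rice shoot meristems and stems, was listed at 0 in all 3 low libraries. In the others it had 8.31 and 7.15 FPKM in WT control 1 and 2, 25.6 and 5.65 FPKM in pkg control 1 and 2, 13.0, 31.2 and 17.9 FPKM in WT Br-cGMP, and 48.9 and 40.1 FPKM in pkg Br-cGMP 1 and 2. With 3 reads in each low library as the floor, its mean was at least 77.3-fold lower there. Of 20 homeobox and related meristem genes past the filter 3 were lower, where 4.89% of all genes were, and the list median was -0.75. Of 36 cell division and replication genes 1 was lower, CYCD4-1, a D-type cyclin gene, a share below the 4.89% over all genes, while 27 had differences below 0 and the median was -0.86. For these genes 3 of the other 9 libraries stood apart. The mitotic kinase gene CDKB2-1 had 158 FPKM in WT control 2, 98.7 FPKM in pkg control 1 and 89.9 FPKM in pkg Br-cGMP 1, and 16.1 to 33.3 FPKM in the remaining 6, against 16.3, 1.90 and 3.71 FPKM in WT control 3, pkg control 3 and pkg Br-cGMP 3. RPA1B, a gene of a DNA replication protein, had 86.6, 45.2 and 58.8 FPKM in the same 3 of the others and 3.03 to 15.2 FPKM in the remaining 6, against 4.60, 1.11 and 1.53 FPKM in the low libraries. The part of these 3 libraries in the list median was not tested. The summed level of the cell division list was 995.6 to 1316 FPKM in the low libraries and 1111 to 4097 FPKM in the others. The 23 cytosolic ribosomal protein genes past the filter held none lower or higher, where 4.89% and 0.29% of all genes were. Their median of -0.19 was -0.07 without WT control 2 and -0.36 without pkg control 2. It changed sign when libraries were centred on the same median.

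**Figure D3:**
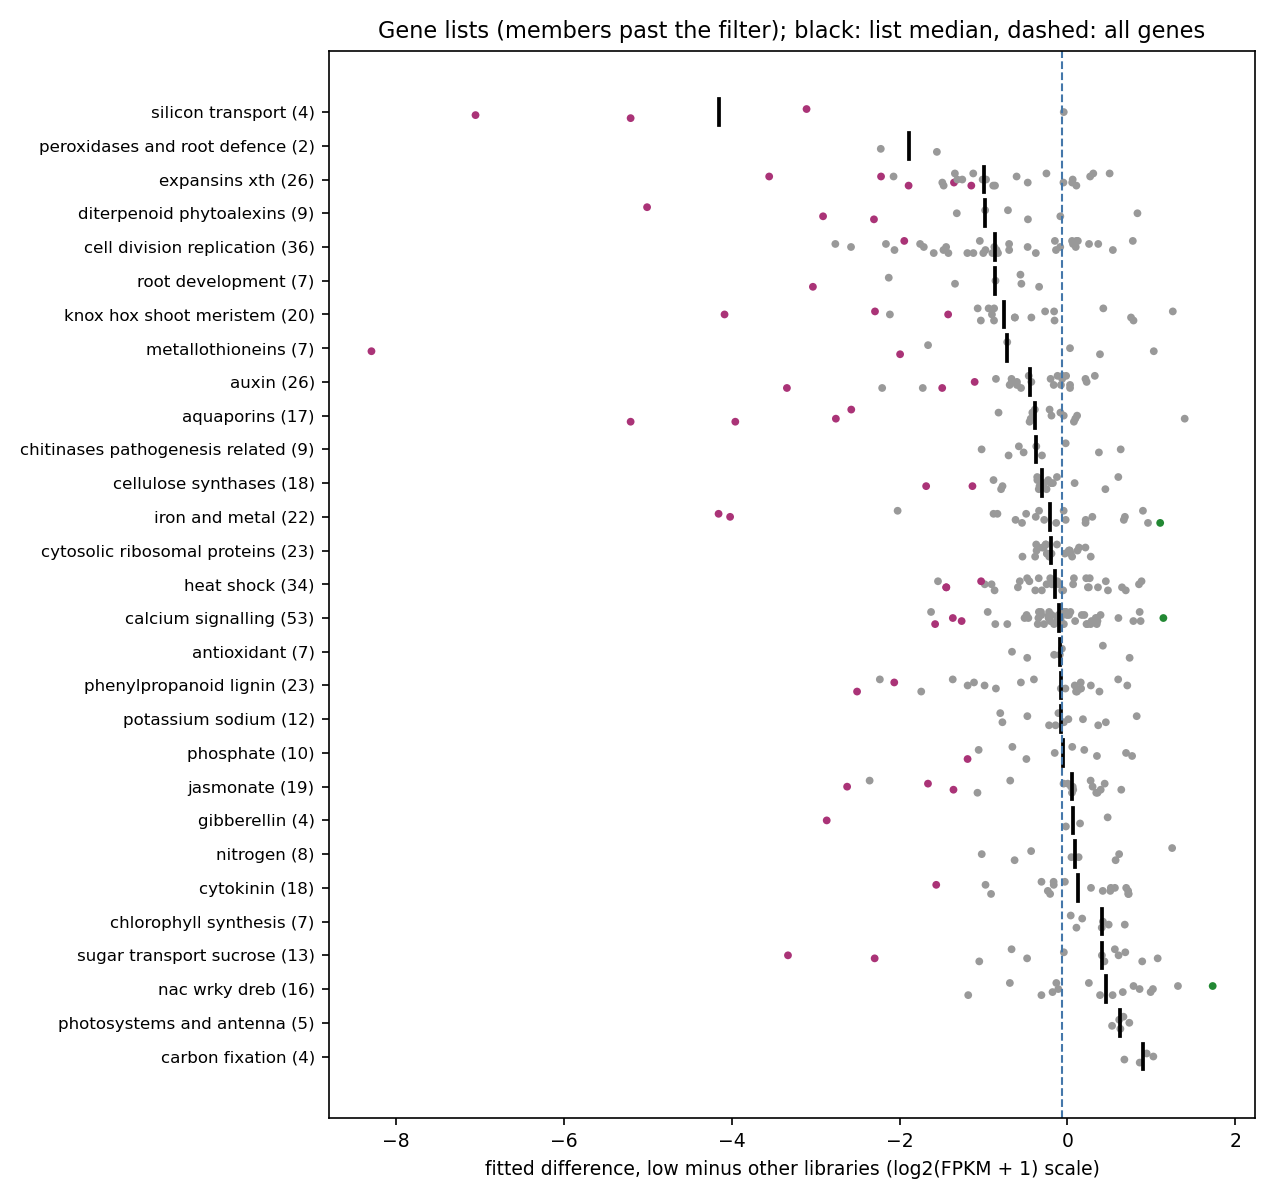
Fitted difference of the 3 low from the 9 other libraries on the log2(FPKM + 1) scale for the members of 29 gene lists that passed the filter; each point is 1 gene (purple lower, green higher, grey neither), the number in brackets is the number of genes shown, black bars are list medians and the dashed line is the median of all genes (-0.06). Silicon transport, which includes the selecting gene LSI2, has the lowest median (-4.16) and carbon fixation the highest (0.90), and single strongly negative genes also stand in lists whose median is near 0.

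Of the 40 higher genes 4 had a symbol, a count near the 8.265% of all genes past the filter that have one. LEA1, a late embryogenesis abundant protein gene, had 15.1, 5.48 and 13.8 FPKM in the low libraries and 0.305 to 2.99 FPKM in the others (2.08 ± 0.42). DREB1G, a transcription factor gene of the cold-response family, had 3.32, 6.31 and 7.61 FPKM against 0 to 3.05 FPKM (1.73 ± 0.32). CIPK7, a calcium-regulated protein kinase gene, had 219, 198 and 211 FPKM against 63.6 to 136 FPKM (1.14 ± 0.21). NRAMP1 was the fourth. The next genes without overlap, among them the zinc transporter gene ZIP2 (0.90 ± 0.16) and the sucrose transporter gene SUT1 (0.89 ± 0.24), did not reach a difference of 1.

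The extremes of both directions were genes with no symbol in the files. OS10G0191300 (chromosome 10, 6370102 to 6370799) had 0.195, 0 and 2.70 FPKM in the low libraries and 666 to 2316 FPKM (median 770) in the others, the most negative of all fitted differences at -9.04 ± 0.41. OS02G0662000 (chromosome 2, 26804988 to 26805820) differed by -8.09 ± 1.20. OS07G0142100 (chromosome 7, 2175193 to 2175719) had 201, 109 and 445 FPKM in the low libraries. In the others it had 0.811 and 1.09 FPKM in WT control 1 and 2, 1.01 and 4.65 FPKM in pkg control 1 and 2, 1.78, 3.34 and 4.23 FPKM in WT Br-cGMP, and at most 47.5 FPKM in pkg Br-cGMP 1 and 2 (5.47 ± 0.73). OS01G0647200 differed by 2.79 ± 0.72.

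**Figure D4:**
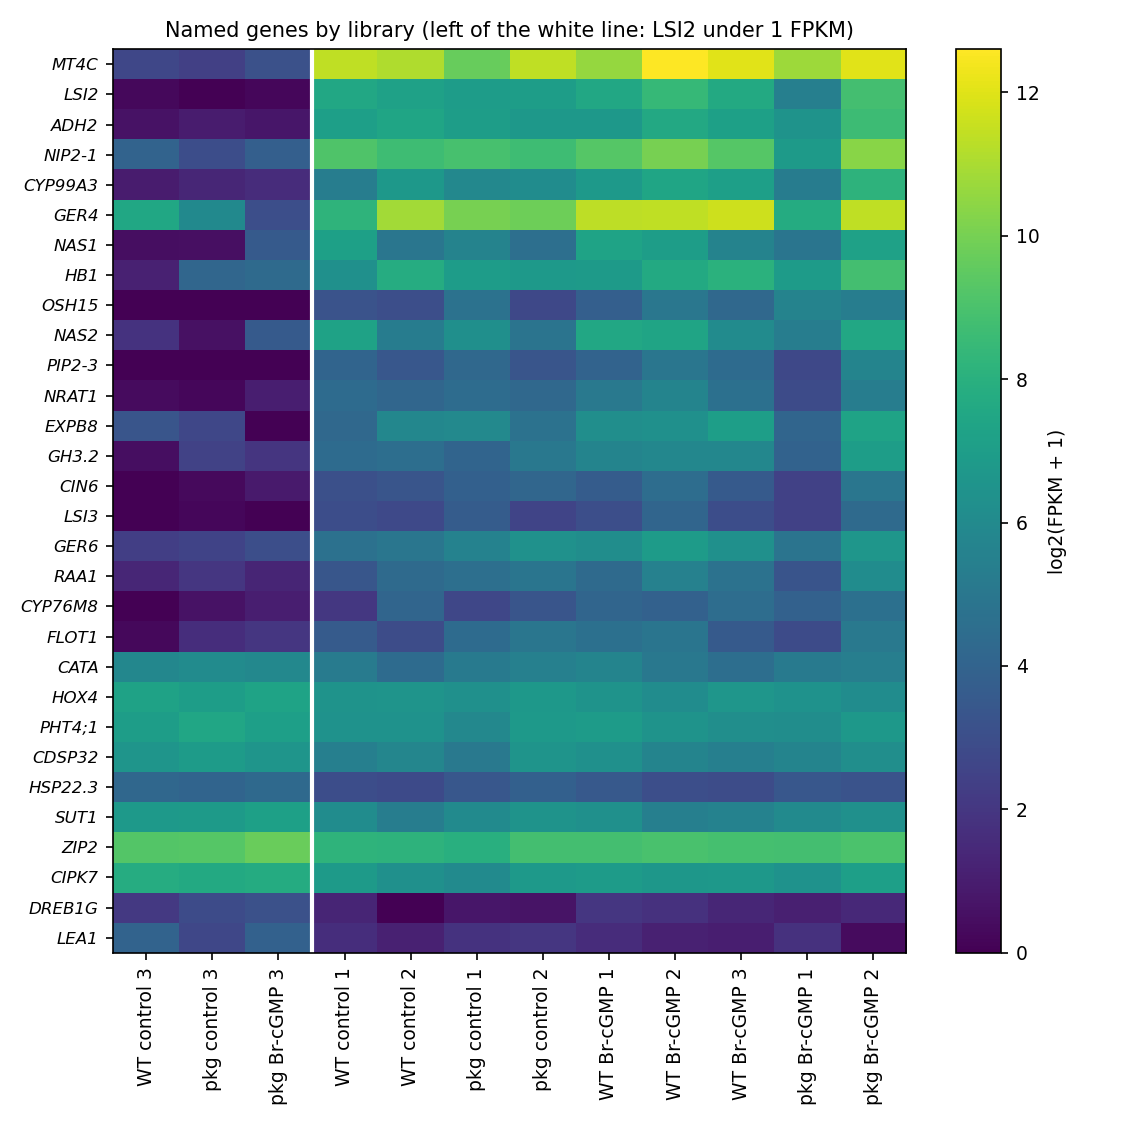
Level of 30 named genes in each library as log2(FPKM + 1), shown by colour; rows are genes ordered by their difference and columns are libraries, with the 3 low libraries left of the white line. The top 20 rows are darker in each of the 3 low columns than in the 9 others and the bottom 10 rows are slightly brighter there.

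The spread of LSI2 among the 9 other libraries was not used to choose them, beyond the limit of 1 FPKM, and the markers were tested against it. The 3 genes tested were themselves chosen with earlier results of these data known. The permutations also exchanged libraries across genotype and treatment. The p-values are therefore no independent support that these genes go together. NIP2-1 followed LSI2 closely over these 9 libraries, with Pearson's r = 0.989 (exact permutation test, two-sided, p = 7.16e-05, adjusted p = 0.000215 over 3 genes) and Spearman's rho = 0.917 (exact permutation adjusted p = 0.00394). Without the 2 libraries farthest from the median of LSI2, pkg Br-cGMP 1 and 2, r was 0.956. PIP2-3 gave r = 0.914 (exact permutation adjusted p = 0.00134) and rho = 0.833 (exact permutation adjusted p = 0.00827), and r = 0.784 without these libraries. MT4C gave r = 0.613 (exact permutation adjusted p = 0.0768), which did not pass, while its rho of 0.833 did (exact permutation adjusted p = 0.00827). Its r was 0.757 without the same 2 libraries; it passed without pkg control 1 (r = 0.699, exact permutation adjusted p = 0.0478) and without pkg Br-cGMP 1 (r = 0.717, exact permutation adjusted p = 0.0480). On deviations from the genotype and treatment terms, r was 0.990 for NIP2-1, 0.948 for PIP2-3 and 0.543 for MT4C, the last not past the threshold (permutation test, adjusted p = 0.135). Deviations from fitted terms are not freely exchangeable between libraries, so this p-value is approximate.

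**Figure D5:**
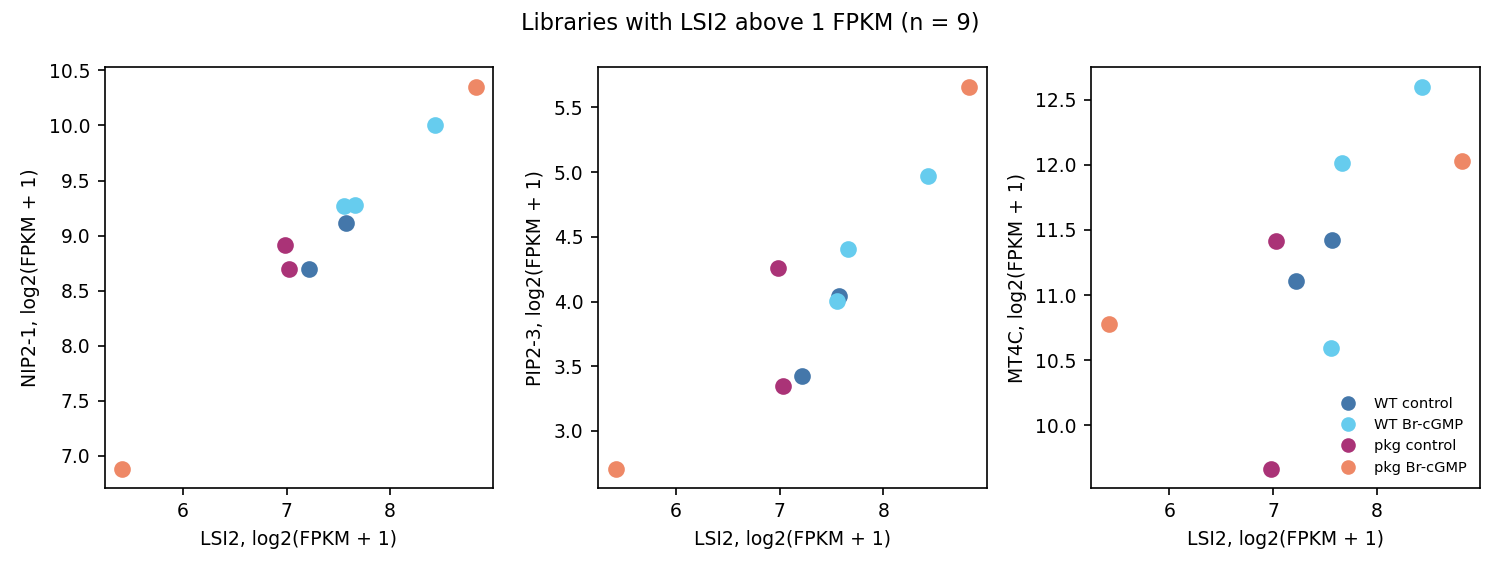
Level of NIP2-1, PIP2-3 and MT4C against LSI2 in the 9 libraries with LSI2 above 1 FPKM, both axes as log2(FPKM + 1); each point is 1 library coloured by group. The points for NIP2-1 lie almost on a line (r = 0.989), those for PIP2-3 scatter more (r = 0.914) and those for MT4C most (r = 0.613), and the 2 pkg Br-cGMP libraries stand at both ends of the LSI2 axis.

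The correlation with LSI2 over the 9 libraries was then described for all genes, where the points share their library and its depth. A Pearson r of at least 0.5 was found for 433 of the 674 lower genes (64.2%), where 19.3% of all 13781 genes had one. Their median r was 0.63, and that of all genes was 0.04. Without pkg Br-cGMP 1 and 2 the shares were 43.2% and 18.6%. LSI2 itself and the other markers are among the 433. Lower genes near 0 in the low libraries passed the filter through these 9, so all genes are not a matched background. The shares describe the lower genes and are not a test. Among genes with a symbol and a mean of at least 5 FPKM in these 9 libraries, the 5 most like LSI2 were NIP2-1, NRAT1 (r = 0.94), BHLH062 (0.94), SIRP1 (0.93) and AT4 (0.93). Below that mean, the lower gene LOGL8, which encodes an enzyme of cytokinin activation, reached 0.95. BHLH062, SIRP1 and AT4 were not among the lower genes: SIRP1 differed by -0.19 ± 0.19, BHLH062 by -0.69 ± 0.30 and AT4 by -1.57 ± 0.49.

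The remaining lower genes followed LSI2 less or not at all over the 9 libraries, with r from 0 to 0.5 for 140 and below 0 for 101. OSH15 had r = -0.01 and CYCD4-1 r = -0.45. Cell division genes had a median r of -0.41, with 0 of 36 at 0.5 or more, and the cytosolic ribosomal protein genes one of -0.31, with 0 of 23. The silicon transport genes, LSI2 itself among them, had 4 of 4. Some genes that were not low in the 3 libraries also followed LSI2 over the 9, among them NIP2-2 (r = 0.72), AMT1-1 (0.73) and PHT1-8 (0.58). Of the phosphate genes 5 of 10, and of the nitrogen genes 4 of 8, had an r of at least 0.5, where 19.3% of all genes had one. No list was tested against that share.

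Within the same 9 libraries no effect of Br-cGMP on the markers was detected. By limma over 13781 genes, with genotype as a covariate, LSI2 differed between Br-cGMP and control by 0.32 ± 0.59 (adjusted p = 0.942), NIP2-1 by 0.25 ± 0.61 (adjusted p = 0.955), PIP2-3 by 0.57 ± 0.55 (adjusted p = 0.933) and MT4C by 0.65 ± 0.51 (adjusted p = 0.933). Without pkg Br-cGMP 2 the estimates were -0.25 for LSI2 and -0.29 for NIP2-1. Over all genes limma called 0 for Br-cGMP (0%), with 650 at an unadjusted p under 0.05, and 0 were called by limma-voom on recovered reads. Of the 674 lower genes, 55 had an unadjusted p under 0.05, and their median was 0.47 where that of all genes was 0.00. Without pkg Br-cGMP 1 these were 345 genes, of 1913 over all genes, and a median of 0.83. Without pkg Br-cGMP 2 they were 20 of 412 and a median of 0.17. The number was also 20 of 474 without WT control 1, 22 of 403 without WT Br-cGMP 2, 29 of 527 without WT Br-cGMP 3 and 32 of 418 without pkg control 1.

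The genotype comparison in these libraries called 30 of 13781 genes (0.218%), 19 higher and 11 lower in pkg, and 18 with the replicate number as a block. Of the 674 genes lower in the 3 libraries, limma called 0, with 40 at an unadjusted p under 0.05, where 1437 of all 13781 genes had such a p; with 0.218% of all genes called, a count of 0 is near that background. Limma-voom also called 0, and without pkg Br-cGMP 2 limma called 1. The 40 became 122 of 2283 without pkg Br-cGMP 1 and 77 of 965 without pkg Br-cGMP 2. LSI2 differed between pkg and WT by -0.59 ± 0.59 (adjusted p = 0.819), NIP2-1 by -0.54 ± 0.61 (adjusted p = 0.85), PIP2-3 by -0.12 ± 0.55 (adjusted p = 0.974) and MT4C by -0.51 ± 0.51 (adjusted p = 0.822). Without pkg Br-cGMP 1 the estimate was 0.18 for LSI2, 0.30 for NIP2-1 and 0.55 for PIP2-3. All these p-values rest on the spread between libraries, which may be technical in part.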

How the data were processed

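Each of the 12 libraries had 1 deposited file with a value and a length for 112071 features. The submitters' processing notes name CASAVA 1.8 and HISAT2, and no source used here names the build, annotation or counter. The authors' deposited values carry no unit name but have the structure of FPKM: multiplied by length, 100% of them were whole numbers of a step fixed for each library, within 0.01, which gave back whole reads.

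The plan had a count model for counts and limma for FPKM, so limma applied (version 3.58.1, under R 4.3.3, trended and robust), on log2(FPKM + 1), with genotype and treatment as additive terms and Benjamini-Hochberg adjustment at 0.05. Reference genes (identifiers beginning OS) with 1 FPKM or more in at least 3 libraries were used, 13781 of 37830. The low libraries were compared with the others by the same linear model, with its SE as a description. Exact permutation tests used scipy 1.17.1 in Python 3.11.15. The limma step and the fit were tested on simulated data. For the limma step, the simulated noise between libraries was set smaller than the residual spread of the real genes, and libraries were independent. It therefore does not show error rates or power in these 9 libraries.

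The libraries, genes and the 29 lists were chosen with earlier results of these data known. Lists were built from symbols, which the files give for 2079 reference genes, and their patterns were corrected after the files were opened; 457 of 837 listed genes passed the filter. Named genes are the 4 markers, the 20 most negative and 10 most positive genes with a symbol, no overlap and a mean from 5 FPKM upward in whichever group was higher, up to 3 members of each list with the largest differences, 2 identifiers without a symbol in each direction, the 5 genes most like LSI2 among those with a symbol that average 5 FPKM or more over the other 9 libraries, and the genes of the study's question; any others are said to be picked afterwards or come from a list count of 5 or fewer. No sequences are printed.

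The pkg libraries with the same number, control and Br-cGMP, deviated together from their group means (correlations 0.458 to 0.492 in 3 pairs), as seen in the data alone, and the other group pairs did not in all their pairs. The highest correlation of any pair was 0.592, for WT control 3 with pkg control 3. Both are low libraries, as are pkg control 3 and pkg Br-cGMP 3 (0.460). In such pairs a shared number cannot be told apart from being low in LSI2. The block and the low libraries are told apart only through WT Br-cGMP 3. Alternatives covered the pseudocount, filter, scaling, covariates, replicate block, size limit, moderation, limma-voom and each library left out; those on the share of genes that follow LSI2 were chosen after seeing the data.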

Additional observations from a re-analysis of the deposited data

Results flagged for a closer look

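Among the 9 libraries that were not low in LSI2, 108 named genes were looked at for a single library far from the rest. The log2 scale was used, and 3 genes had such a library. Chance gives about 1 in 20 groups, so 3 of 108 genes is no more than chance gives. The 9 libraries also mix genotypes and treatments, and the genes are not independent of each other. NIP2-1 was 117 FPKM in pkg Br-cGMP 1, where the other 8 libraries had 415 to 1307 FPKM. BHLH062, a gene with high correlation to LSI2, was 5.27 FPKM in the same library and 9.90 to 17.7 FPKM in the rest. SWEET2B, a sugar transporter gene, was 1.56 FPKM in pkg control 1 and 3.36 to 6.21 FPKM in the rest.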

How the results depend on the processing

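The number of lower genes (674) became 355 with a pseudocount of 5, 433 with libraries centred on the same median and 340 at a difference of 2, and ranged from 656 to 973 with each library left out. The number of higher genes (40) became 65 with a pseudocount of 0.1, 22 with one of 5, 172 with centring, 80 with the replicate block and 4 at a difference of 2, and ranged from 30 to 134 with each library left out. The causes were not tested, except that the larger size limit counts fewer genes by construction. For 107 named genes, 85 of 2340 values under the alternatives moved by more than the spread between replicates, and 0 changed direction in a gene counted as lower or higher; for the 29 list medians, 55 of 638 values moved.

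The genotype count (30) became 13 with a filter of 5 FPKM, 74 with all 12 libraries and the low ones as a term, 18 with the replicate block and 9 by limma-voom, and ranged from 8 to 32 with each library left out. The Br-cGMP count was 0 under every alternative run. With each library left out, the Br-cGMP estimate ranged from -0.25 to 0.96 for LSI2 and from -0.29 to 0.94 for NIP2-1, and the genotype estimate from -1.28 to 0.18 for LSI2, from -1.19 to 0.30 for NIP2-1 and from -0.71 to 0.55 for PIP2-3. The r of MT4C with LSI2 ranged from 0.515 to 0.717.

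The share of lower genes with r of at least 0.5 was 43.2% to 74.5% over the alternatives. With the replicate block 672 genes were lower, of which 621 were among the 674, and 30 of its 80 higher genes were among the 40; the Br-cGMP count was 0. Values under 1 FPKM in the low libraries rest on few reads, so differences of weakly expressed genes are limited by depth.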
